A study of Mus musculus with 9 samples.

Results

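Monocytes that had entered the brain (NMO_Br_mono) were compared with monocytes of the blood (NMO_Bl_mono) in a mouse model of neuromyelitis optica (NMO), an autoimmune disease in which antibodies to the astrocyte water channel aquaporin-4 damage the central nervous system. The members were all 6 libraries labelled as monocytes of NMO brain or NMO blood, 3 of each, out of 9 monocyte libraries in the series. The other 3 libraries were monocytes from the blood of normal mice (Nor_Bl_mono), which entered the fit only to estimate the spread. All animals were wild type, and the NMO mice were female C57BL/6N mice aged 12 weeks that had received patient-derived NMO-IgG together with human complement into the striatum of one side. Cells were sorted on day 1 as CD45+CD11b+P2ry12-Ly6C+Ly6G-, and the 3 libraries of each group were independent replicates, each from a pool of 5 mice. Whether brain and blood pools came from the same mice is not stated. Brain monocytes from animals that received no NMO-IgG or a control IgG were not analysed here, so the comparison is between tissues. Brain cells came from animals perfused with cold saline and had also passed through warm enzymatic digestion, a Percoll gradient and red blood cell lysis. For blood cells the methods give a density gradient alone, and tissue and preparation cannot be told apart.

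Classical Ly6C-high monocytes are made in the bone marrow, circulate for a short time and follow chemokine signals such as CCL2 into injured tissue. Once there they attach to matrix, take up debris, expand their lysosomes and change transcription factors as they turn into macrophages. In the blood a CD11b+Ly6C+ gate can also hold natural killer (NK) cells, and platelets can adhere to monocytes. In bulk RNA of sorted cells, fewer cells of a type and less RNA per cell cannot be told apart.

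Read counts per gene came from 3′ sequencing, in which a transcript gives reads near its end only. Total counts were 9541829 to 10416076 in NMO_Br_mono and 7582571 to 9139327 in NMO_Bl_mono, and the ribosomal RNA entry Rn45s held 28.4% to 42.2% of them. Levels are given as CPM (counts scaled to the library total with edgeR's TMM factors), for replicates 1, 2 and 3 in turn, with brain for NMO_Br_mono and blood for NMO_Bl_mono. The detection floor was set at 3 counts per library, or 0.270 to 0.418 CPM. Folds over this floor cover counting error only and do not bound the difference between the cells. NMO_Bl_mono replicate 3 stood apart, with 3 counts or fewer in 54.8% of the 8768 genes tested, against 1.78% and 4.86% in the other NMO_Bl_mono libraries and 7.90% to 39.8% in NMO_Br_mono.

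Few genes passed the test. With edgeR's quasi-likelihood test and Benjamini-Hochberg adjustment, 2 of 8768 genes (0.0228%) were higher in NMO_Br_mono and 19 (0.217%) were lower at an adjusted p under 0.05. Only these genes are described as having risen or fallen. At the unadjusted threshold that the study states, which joins a p under 0.05 to a 1.2-fold change, 126 genes (1.44%) were higher and 236 (2.69%) lower, and such a p is passed by 5% of unchanged genes. Every brain library lay above every blood library in 629 genes (7.17%) and below in 595 (6.79%), and 410 of the 629 were at the floor in NMO_Bl_mono replicate 3. These shares of all genes tested are the background for the counts of every list below. Among the 2553 genes with at least 10 counts in each of the 6 libraries, 64 (2.51%) were higher and 93 (3.64%) lower at the unadjusted threshold, and 213 (8.34%) lay above and 244 (9.56%) below without overlap. Of the 19 genes that fell, 15 were at or under the floor in every brain library. Only 3 of them, Irf8, Nkg7 and Ccl5, were among those 2553 genes. To be tested, a gene needed at least 10 counts in at least 3 of the 6 libraries. A gene at the floor throughout 1 group was therefore tested only through the other group, which fixed its direction and its lack of overlap. When single libraries were left out, between 0 and 3 genes were higher and between 7 and 29 lower. The count of higher genes was 0 when any one NMO_Br_mono library, NMO_Bl_mono replicate 1 or NMO_Bl_mono replicate 2 was left out, and 3 without NMO_Bl_mono replicate 3.

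**Figure D1:**
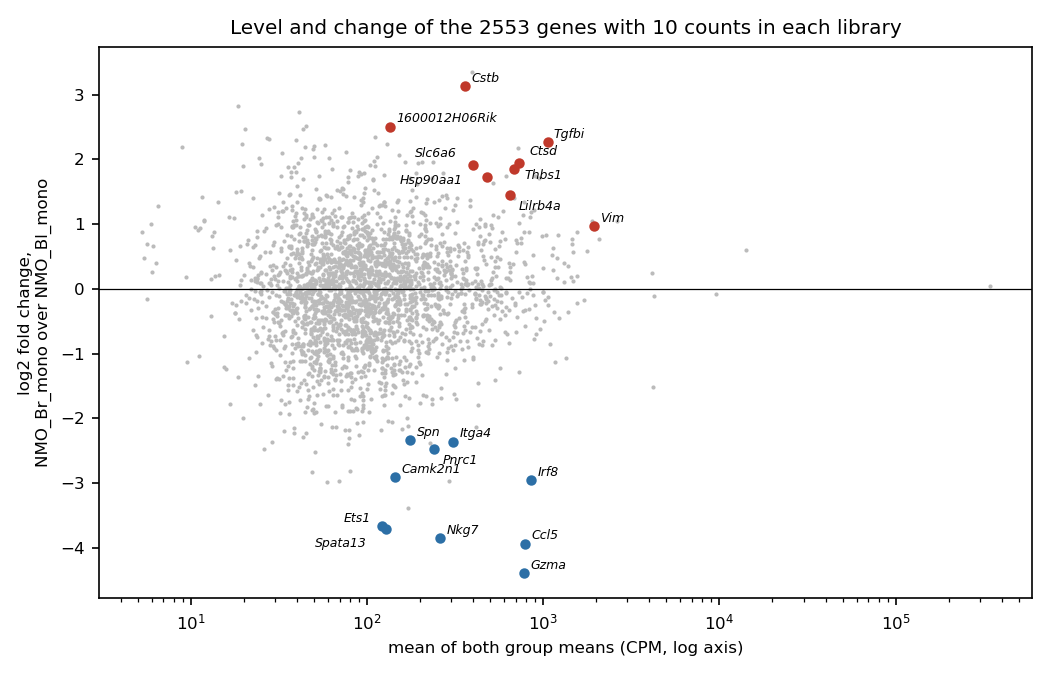
Log2 fold change (NMO_Br_mono over NMO_Bl_mono, vertical axis) against the mean of both group means in CPM (horizontal log axis) for the 2553 genes with at least 10 counts in each of the 6 libraries, 1 point a gene. Coloured and labelled points are 9 higher and 10 lower genes of smallest p whose groups did not overlap, from Cstb at 3.13 to Gzma at -4.40.

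Monocyte transcripts were present in both tissues. The summed level of 14 monocyte markers was 5520 to 10372 CPM in NMO_Br_mono and 4389 to 8343 CPM in NMO_Bl_mono. Their median log2 fold change was -0.05, and it was 0.01 with RLE factors in place of TMM. Among them Ccr2, the receptor for CCL2, was measured at 1284, 769.8 and 1127 CPM in brain and 687, 662 and 88.8 CPM in blood (log2 fold change 1.15, adjusted p = 1.00). Its brain libraries all lay above its blood libraries, and it did not pass either threshold. Ly6c2, part of the sorting antigen, was measured at 433, 58.3 and 198 CPM in brain and 658, 733 and 490.3 CPM in blood. All brain libraries lay below all blood libraries, and the gene passed only the unadjusted threshold (log2 fold change -1.45, adjusted p = 1.00), as did Ptprc, the gene of CD45 (-1.14, adjusted p = 0.492).

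Markers of other cells differed between the groups. The 14 NK cell markers summed to 99.9 to 608 CPM in NMO_Br_mono and 4757 to 5124 CPM in NMO_Bl_mono, with none at 0 in a whole group. Platelet markers summed to 25.6 to 39.1 CPM in NMO_Br_mono and 631 to 3089 CPM in NMO_Bl_mono, and 7 of 14 (among them Gp9, Gp1ba, Tubb1, Treml1, Gp5 and Gp6) were at 0 in every brain library. Erythroid markers summed to 1.40 to 460 CPM and 2218 to 7225 CPM, with 5 of 10 (among them Hba-a2, Alas2, Slc4a1 and Bpgm) at 0 in every brain library. All 3 sums were lower in every brain library than in any blood library. The 13 microglia markers lay the other way, at 905 to 1050 CPM in NMO_Br_mono and 0.0899 to 250 CPM in NMO_Bl_mono. Of these, 6 (Tmem119, Gpr34, Olfml3, Fcrls, P2ry13 and Slc2a5) were at 0 in every blood library. The unadjusted threshold was passed by 4 of 9 tested, against 1.44% of all genes on the higher side. Members at 0 in blood could be tested only through their brain counts, which fixed their direction. Cx3cr1, the tested member of highest level on this list, is also a marker of non-classical monocytes, so the sum is not of microglia alone. The 11 neutrophil markers summed to 494 to 1895 CPM in NMO_Br_mono and 125 to 342 CPM in NMO_Bl_mono, and the defining gene Ly6g was not analysed here. The part of any of these cells in the results was not tested.

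**Figure D2:**
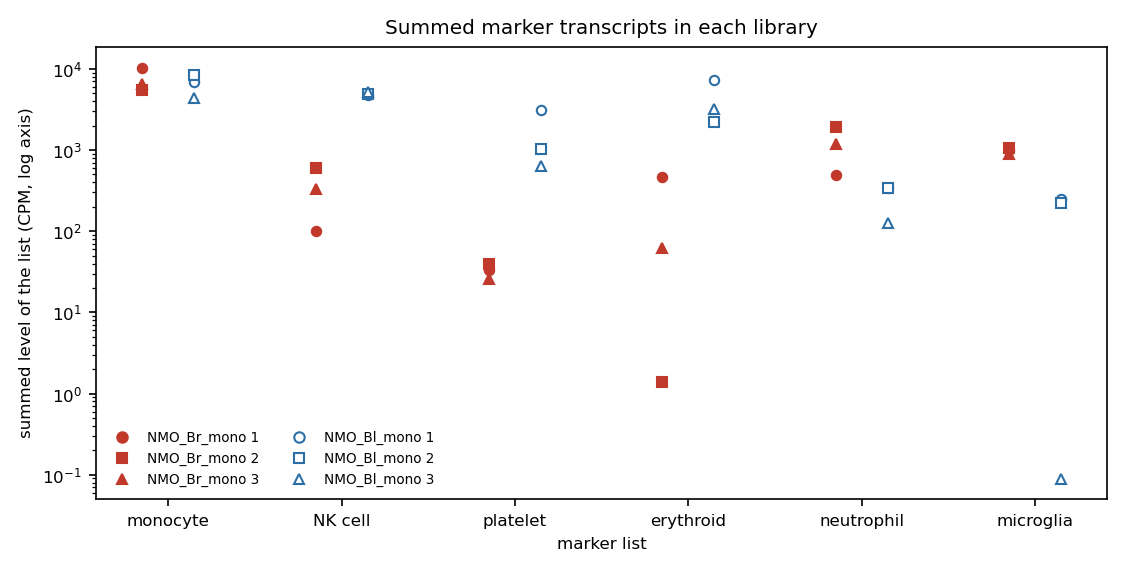
Summed level in CPM (vertical log axis) of the marker lists of monocytes, NK cells, platelets, erythroid cells, neutrophils and microglia in each library. Filled symbols are NMO_Br_mono, open symbols NMO_Bl_mono, and the shape gives the replicate. The monocyte sums overlap, the NK, platelet and erythroid sums are lower in all brain libraries, and the neutrophil and microglia sums are higher in all brain libraries.

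Other marker sums overlapped between the groups. Markers of non-classical monocytes summed to 1263 to 1733 CPM in NMO_Br_mono and 756 to 1524 CPM in NMO_Bl_mono, and those of border macrophages to at most 637 CPM and 1246 CPM. T cell markers summed to 22.8 to 170 CPM in NMO_Br_mono and 38.6 to 132 CPM in NMO_Bl_mono, and B cell markers to 17.4 to 85.5 CPM and 0.0899 to 156 CPM. Of the 4 T cell, 2 B cell, 5 dendritic cell, 1 neuron and 5 endothelial genes tested, 0 passed the unadjusted threshold in either direction, and 0 of 7 astrocyte markers could be tested. In the endothelial list the highest brain sum was 1620 CPM, in NMO_Br_mono replicate 3, where Flt1, a receptor for vascular endothelial growth factor, was at 552 CPM. Among oligodendrocyte markers, Mal alone passed, at 14.7, 43.2 and 11.4 CPM in brain and 0 CPM throughout blood. Among markers of border macrophages, 1 of 5 was lower at that threshold, the chemokine gene Pf4, which is also on the platelet list. Of 10 markers of non-classical monocytes, 1 was lower, Spn, while 7 had a fitted change above 0.

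Irf8, the transcription factor that directs monocyte and dendritic cell development, fell and had the smallest p among genes with counts in every library. The gene lies at chr8:120736358-120756694 in GRCm38.p6. It was measured at 263, 134 and 191 CPM in brain and 1271, 1419 and 1856 CPM in blood. The lowest blood library was 4.84 times the highest brain library, and the Nor_Bl_mono libraries, at 1646, 1292 and 1569 CPM, overlapped those of NMO_Bl_mono. The test gave a log2 fold change of -2.95, a standard error of 0.34 and an adjusted p = 0.00371. It was called under all 15 alternatives, including each of the 6 omissions of a library, with a log2 fold change between -3.22 and -2.66. Irf8 moved with the summed NK level given above, and the part of NK or other cells in its change was not tested.

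Tgfbi, a secreted matrix protein that binds collagen and integrins, rose. The gene lies at chr13:56609586-56639359, and it was measured at 1737, 1448 and 2079 CPM in brain and 314, 415 and 358 CPM in blood. The lowest brain library was 3.49 times the highest blood library. The test gave a log2 fold change of 2.28, a standard error of 0.38 and an adjusted p = 0.0328. The call was lost when any single library was left out (adjusted p from 0.0619 to 0.175), with library sizes alone (0.0646) and with only the 6 NMO libraries (0.0707), while the log2 fold change stayed between 2.13 and 2.42 over all 15 alternatives. The other gene that rose, the chemokine Ccl7, belongs to the inflammation genes of the study and was at 139.8, 140.0 and 208 CPM in brain and 0 CPM throughout blood, a brain mean at least 483-fold over a blood floor of 3 counts per library (adjusted p = 0.0427). It was called without NMO_Bl_mono replicate 3 and lost when any of the other 5 libraries was left out (adjusted p from 0.121 to 0.276).

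**Figure D3:**
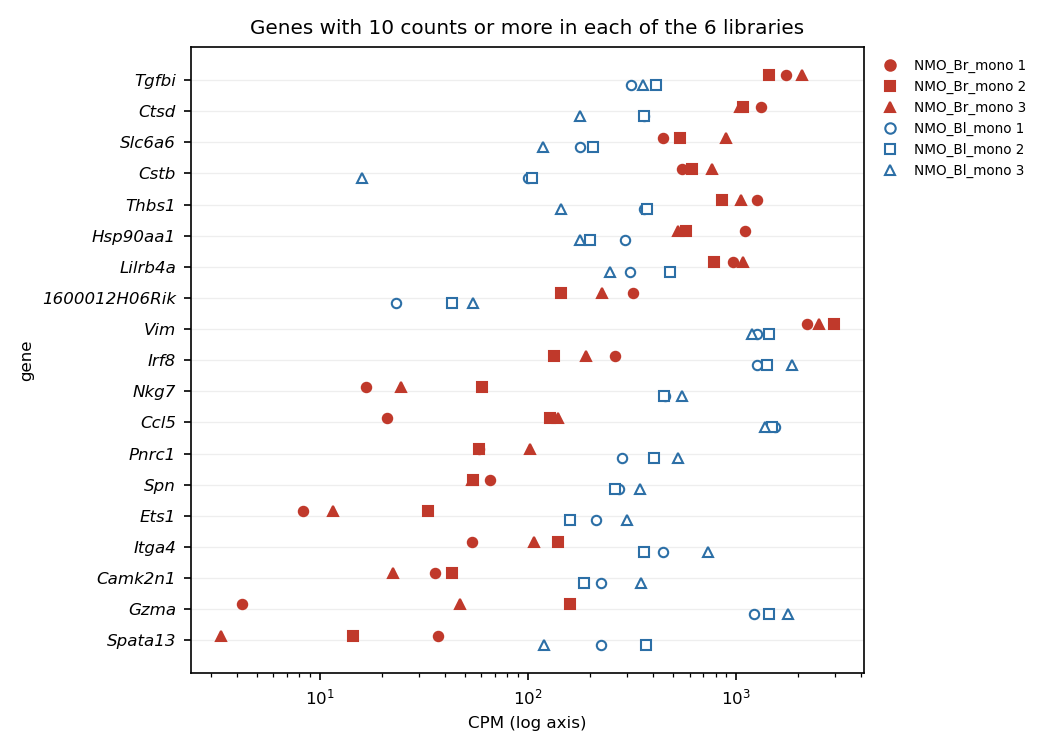
Level in CPM (horizontal log axis) in each of the 6 libraries of 9 higher and 10 lower genes of smallest p among those with at least 10 counts in each library. Filled symbols are NMO_Br_mono, open symbols NMO_Bl_mono, and the shape gives the replicate. The groups do not overlap in any of the 19 genes, which is how they were picked, and only Tgfbi, Irf8, Nkg7 and Ccl5 passed the adjusted threshold.

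Beyond Tgfbi, 9 genes with counts in every library led the higher side without passing after adjustment. Ctsd, the lysosomal protease cathepsin D, was measured at 1323, 1085 and 1051 CPM in brain and 361, 361 and 179 CPM in blood (a log2 fold change of 1.94, a standard error of 0.37 and an adjusted p = 0.0600). The lowest brain value was 2.91 times the highest blood value, and Ctsd passed when only the 2553 genes with 10 counts in each library were tested (adjusted p = 0.0252). Cstb, an inhibitor of cysteine cathepsins, was measured at 554, 619.9 and 770.4 CPM in brain and 101, 105 and 15.9 CPM in blood (log2 fold change 3.13, adjusted p = 0.180), and its lowest library was NMO_Bl_mono replicate 3. Slc6a6, the taurine transporter, was measured at 449, 539 and 903 CPM in brain and 178, 205 and 119 CPM in blood (1.91, adjusted p = 0.160). Both genes had all brain libraries above all blood libraries. Lilrb4a, an inhibitory receptor of myeloid cells, was measured at 968, 786 and 1085 CPM in brain and 310.5, 483 and 250.2 CPM in blood (1.44, adjusted p = 0.305). Vim, the intermediate filament vimentin, was at 2210.3, 2959 and 2507 CPM in brain and 1265, 1448 and 1200.2 CPM in blood (0.97, adjusted p = 0.342), the smallest difference of the group at the highest level. The open reading frame 1600012H06Rik had means of 230.0 ± 87.8 CPM in brain and 40.4 ± 15.7 CPM in blood (SD, n = 3).

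On the lower side, Spn, the sialoglycoprotein CD43 that marks non-classical monocytes, was measured at 66.3, 54.6 and 54 CPM in brain and 274, 264 and 346 CPM in blood (a log2 fold change of -2.34, a standard error of 0.46 and an adjusted p = 0.0772). Itga4, the integrin subunit that binds VCAM-1 on endothelium, was at 53.9, 140.1 and 107 CPM in brain and 446, 362 and 735 CPM in blood (log2 fold change -2.36, adjusted p = 0.0787). Both adhesion genes were lower in every brain library, as was the summed NK level, whose part was not tested. Neither gene passed after adjustment. Pnrc1, a nuclear receptor coactivator, was at 58.3, 58.4 and 102 CPM in brain and 284, 407 and 527 CPM in blood (-2.47, adjusted p = 0.0740). Ets1, a transcription factor abundant in lymphocytes and NK cells, was at 8.29, 33.3 and 11.6 CPM in brain and 213, 160.2 and 300.4 CPM in blood (-3.66, adjusted p = 0.0787), and Camk2n1, an inhibitor of calcium/calmodulin kinase, was at 35.8, 43.4 and 22.6 CPM in brain and 226, 186 and 352 CPM in blood (-2.91, adjusted p = 0.0853). The lowest blood library was 4.81 and 4.29 times the highest brain library, in turn. Spata13, an exchange factor for small GTPases, varied more, at 37.1, 14.5 and 3.37 CPM in brain and 225, 372 and 119.7 CPM in blood (-3.70, adjusted p = 0.160). With only the genes having 10 counts in each library tested, 2 genes were called higher and 7 lower, and the 7 included Spn, Pnrc1, Ets1 and Camk2n1.

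Most of the genes that fell were nearly absent from the brain libraries. Nkg7, a granule protein of cytotoxic cells, was measured at 16.8, 60.2 and 24.5 CPM in brain and 457, 450.4 and 553 CPM in blood (a log2 fold change of -3.85, a standard error of 0.57 and an adjusted p = 0.0190), and the chemokine Ccl5 at 21, 128 and 140.4 CPM in brain and 1550.4, 1495 and 1381 CPM in blood (a log2 fold change of -3.94, a standard error of 0.60 and an adjusted p = 0.0191). Both are on the NK list and stayed detectable in every brain library. The granzyme gene Gzma, at 4.25, 160.1 and 47.2 CPM in brain and 1225, 1443 and 1791 CPM in blood, was also abundant in blood but varied 37.6-fold among the brain libraries and did not pass (adjusted p = 0.0853). Of the 14 NK genes, 11 lay below without overlap, 9 were lower at the unadjusted threshold, and the list median was -3.89. Over all genes tested, 6.79% lay below without overlap, 2.69% were lower at that threshold, and the median was 0.10. Nkg7 was not called without NMO_Br_mono replicate 3 or NMO_Bl_mono replicates 1 or 2, and Ccl5 not without any of these or NMO_Br_mono replicate 2 (adjusted p up to 0.0812). Neither was called with only the 6 NMO libraries (0.111 and 0.111) or with limma-voom (0.0559 and 0.0752).

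The Klra genes, which encode Ly49 receptors of NK cells, were also low in the brain. Klra8 was measured at 0, 0.186 and 0 CPM in brain and 282, 291 and 349 CPM in blood, a blood mean at least 1009-fold over the brain floor (adjusted p = 0.00142). Klra21 was measured at 0, 0.0932 and 0 CPM in brain and 141, 133 and 171 CPM in blood and was at least 489-fold over it (adjusted p = 0.00371). These genes are near-identical copies and reads aligned to several places were counted, so the split between copies is uncertain. Over the family, 12 were tested, 11 had a fitted change below 0, 8 lay below without overlap and 3 fell. Of all genes tested, 6.79% lay below without overlap and 0.217% fell. Genes at the floor in every brain library, here and in the Gimap family below, could be tested only through their blood counts. That fixed their direction and their lack of overlap. Gimap4, a GTPase of lymphocyte survival, was measured at 0, 0.559 and 0 CPM in brain and 428, 493 and 476 CPM in blood (adjusted p = 0.00436), and of 6 Gimap genes tested 4 lay below without overlap and 2 fell. The tyrosine kinase Txk, at 59.0 to 314 CPM in NMO_Bl_mono, and the vesicle protein Sytl3, at 80.3 to 99.7 CPM, are known from T and NK cells. They were at or under the floor in all brain libraries, with levels at least 478-fold and 299-fold over it (adjusted p = 0.0185 and 0.0191). The calls of Klra8, Klra21 and Gimap4 were kept whenever 1 library was left out and lost with limma-voom (adjusted p = 0.0998, 0.105 and 0.211). All these genes moved with the summed NK level given above, and the part of NK cells in their change was not tested.

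Nrgn, a calmodulin-binding protein abundant in neurons and platelets, was measured at 0, 0.0932 and 0 CPM in brain and 1016, 275 and 273 CPM in blood. Ppbp, a platelet chemokine precursor, was at 0, 0.0932 and 0 CPM in brain and 333, 172 and 104 CPM in blood. Both were at or under the floor in every brain library, so that the blood levels were at least 1714-fold and 668-fold over it (adjusted p = 0.00248 and 0.00711). Both are on the platelet list and enter its sum, so their moving with that sum is not separate evidence. The part of platelets was not tested. Gem, a small GTPase that restrains calcium channels, was at 48.3, 74.5 and 168 CPM in NMO_Bl_mono, and Adamts14, a procollagen protease, at 96.0, 72.3 and 96.2 CPM. Both were at or under the floor in all brain libraries, with blood means at least 318-fold and 290-fold over it (adjusted p = 0.0191 and 0.0201). Leaving out 1 library moved the adjusted p of Gem, Adamts14 and Sytl3 to as much as 0.0723, 0.0866 and 0.0866, and each was lost without NMO_Br_mono replicate 3 or NMO_Bl_mono replicates 1 or 2. Txk was lost without NMO_Br_mono replicate 3 (adjusted p = 0.0572) and Ppbp without NMO_Br_mono replicates 2 or 3 (0.0522 and 0.0593). Nrgn was kept in each of these omissions, and with limma-voom the calls of Nrgn (0.668), Ppbp (0.552), Adamts14 (0.188), Gem (0.0752) and Txk (0.0598) were lost. Gem, Adamts14, Sytl3 and Txk were also lost with only the 6 NMO libraries (adjusted p from 0.111 to 0.242) and with the replicate block (0.0508 to 0.393).

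**Figure D4:**
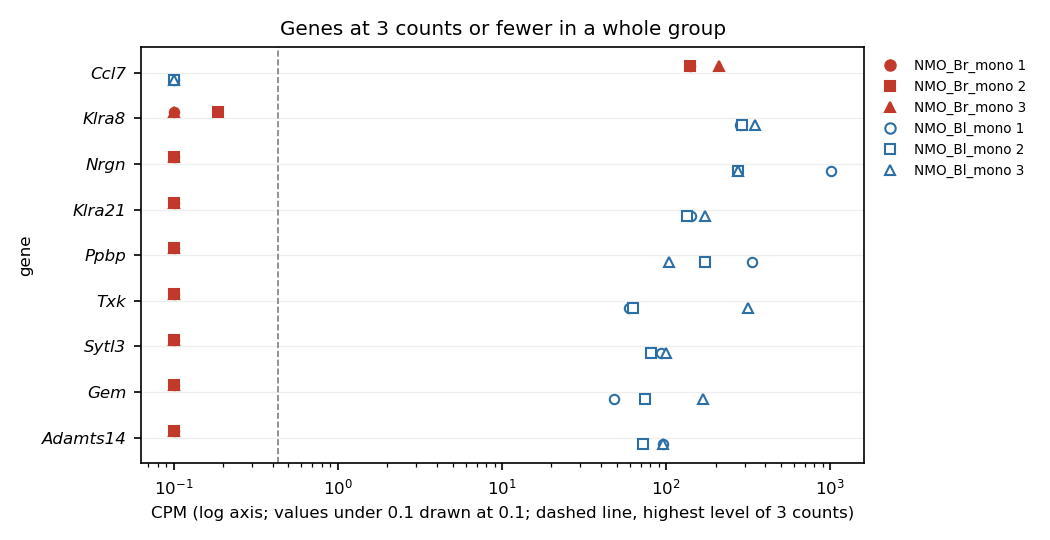
Level in CPM (horizontal log axis) in each library of genes named for passing the adjusted threshold that were at 3 counts or fewer in every library of a group. Values under 0.1 CPM are drawn at 0.1 and overlap there. Genes at that floor that were named by other rules are not drawn. The dashed line is the highest level that 3 counts stand for in a library (0.418 CPM). Ccl7 lies above that line in NMO_Br_mono alone and the other 8 genes in NMO_Bl_mono alone.

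Lysosomal genes leaned to the brain side. Of 35 tested, 4 (11.4%) were higher at the unadjusted threshold, against 1.44% of all genes, 0 were lower and 0 passed after adjustment. The brain libraries lay above without overlap in 12, against 7.17% of all genes, and below in 0. The median log2 fold change was 0.77, and over the 22 members with 10 counts in each library it was 0.71. The 4 genes were proteases, namely Ctsd, Ctss, Ctsb and Ctsa. Ctss, a cathepsin that trims the invariant chain of MHC class II, was at 2789.6, 2542 and 2343 CPM in brain and 1108, 1699 and 918 CPM in blood (1.04, adjusted p = 0.539). Ctsb was at 1057, 909 and 1563 CPM in brain and 278, 481 and 23 CPM in blood (2.17, adjusted p = 0.775), and Ctsa, which protects lysosomal glycosidases, at 353, 364 and 362 CPM in brain and 114, 197 and 18.9 CPM in blood (1.71, adjusted p = 1.00). In both, NMO_Bl_mono replicate 3 was far below the other libraries, and without that library 7 lysosomal genes passed the unadjusted threshold, against 3 to 6 when any of the other 5 was left out. The saposin precursor Psap overlapped between the groups (0.77, adjusted p = 1.00). The list moved the same way as the summed microglia markers, whose part was not tested.

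The promoter of Ctsd is shown because it led this list and holds the letters TCACGTG, read as CACGTGA on the other strand, that lysosomal gene promoters are known to share. The sequence is from RefSeq for GRCm38.p6, the build the submitters name as mm10, and covers the 250 bases before the start site, minus strand, chr7:142387828-142388077, with the matches in capitals.

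Ctsd: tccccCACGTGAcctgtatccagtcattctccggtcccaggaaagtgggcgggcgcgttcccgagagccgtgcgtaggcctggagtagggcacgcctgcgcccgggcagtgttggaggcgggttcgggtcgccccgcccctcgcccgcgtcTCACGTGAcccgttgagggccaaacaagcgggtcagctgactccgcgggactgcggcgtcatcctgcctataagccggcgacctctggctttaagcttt

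It holds the letters 2 times. They occurred in the promoter windows, from 250 bases before to 50 bases after a start, of 4.29% of 27025 genes and of 9 of the 28 lysosomal genes with a window (32.1%). Among the lysosomal genes past the unadjusted threshold, 2 of 3 with a window had them. A match is a description of the letters only.

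Heat-shock chaperones, which refold proteins after heat or stress, were another list with all its calls on the brain side. Of 19 tested, 5 (26.3%) were higher at the unadjusted threshold, against 1.44% of all genes, 0 were lower and 0 passed after adjustment. The brain libraries lay above without overlap in 9 and below in 1, against 7.17% and 6.79% of all genes, and the median was 0.84. The inducible Hsp70 gene Hspa1a was measured at 4071, 1029.9 and 563 CPM in brain and 15.4, 10.2 and 0 CPM in blood (7.79, adjusted p = 0.341). Hspa1b, its near-identical neighbour, was at 4197, 1030.4 and 379 CPM in brain and 10.3, 7.34 and 0 CPM in blood, and the split of reads between them is uncertain. The lowest brain library was 36.5 and 36.8 times the highest blood library, and the brain values spread 7.23-fold and 11.1-fold with NMO_Br_mono replicate 1 the highest. The small heat-shock protein Hspb1 was at 153, 76.3 and 113 CPM in brain and 2.09, 0 and 0 CPM in blood (7.36, adjusted p = 0.722). The inducible Hsp90 gene Hsp90aa1 was at 1104, 577 and 531 CPM in brain and 292, 200.3 and 178 CPM in blood (1.72, adjusted p = 0.223), and its constitutive relative Hsp90ab1 overlapped between the groups (0.84, adjusted p = 1.00). The methods give a warm enzyme step for brain cells alone, and the part of that step was not tested.

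The upstream sequences of Hspa1a and Hspb1 are shown because both genes were low in blood and hold the heat-shock letters. The letters searched were GAANNTTC and TTCNNGAA, each of which reads the same on both strands, with overlapping matches joined and capitals marking them. Both are from RefSeq for GRCm38.p6, Hspa1a from chr17:34972157-34972406 on the minus strand and Hspb1 from chr5:135887669-135887918 on the plus strand.

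Hspa1a: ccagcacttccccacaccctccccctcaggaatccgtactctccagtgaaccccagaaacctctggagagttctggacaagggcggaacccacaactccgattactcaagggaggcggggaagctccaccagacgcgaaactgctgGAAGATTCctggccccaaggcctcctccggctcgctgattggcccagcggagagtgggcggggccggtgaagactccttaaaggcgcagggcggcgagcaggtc

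Hspb1: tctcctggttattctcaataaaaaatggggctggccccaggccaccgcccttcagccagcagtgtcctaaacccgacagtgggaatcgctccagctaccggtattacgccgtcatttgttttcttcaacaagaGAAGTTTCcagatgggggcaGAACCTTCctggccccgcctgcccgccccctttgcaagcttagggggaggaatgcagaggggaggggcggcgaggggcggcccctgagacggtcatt

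The match in Hspa1a lies 104 bases before the start site and the first in Hspb1 117 bases before it. Windows of 17.0% of 27025 genes held such letters, against 11 of 16 chaperone genes with a window (68.8%). Of chaperone genes past the unadjusted threshold with a window, 3 of 3 held them, namely Hspa1a, Hspa1b and Hspb1. The windows of Hspa1a and Hspa1b are near-identical, so they are not separate cases.

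Besides Tgfbi, other genes of the extracellular matrix and of its turnover passed the unadjusted threshold on the brain side, and 0 of them passed after adjustment. Of 11 matrix glycoprotein genes tested, 3 (27.3%), Tgfbi among them, were higher at the unadjusted threshold and 0 lower, with a median of 1.17. Thbs1, thrombospondin-1, was measured at 1270.2, 862 and 1059 CPM in brain and 362, 375 and 145 CPM in blood (1.86, adjusted p = 0.213). Sparc, a collagen-binding protein that microglia also express, was at 108, 74.4 and 313 CPM in brain and 0, 3.88 and 0 CPM in blood (6.98, adjusted p = 0.769), and it was almost absent from blood. Of 15 matrix proteases and inhibitors, 4 (26.7%) were higher, 0 lower and 7 lay above without overlap. The 4 include Ctsb, which is also counted among the lysosomal genes above. Among all genes tested, 1.44% were higher at that threshold and 7.17% lay above without overlap. Mmp14, a membrane-bound collagenase, was at 163, 89.9 and 299 CPM in brain and 4.45, 4.31 and 0 CPM in blood (5.97, adjusted p = 0.539). Adam8, a sheddase of leukocytes, was at 374, 89.7 and 322 CPM in brain and 20, 27.3 and 0 CPM in blood (4.05, adjusted p = 0.876), and the inhibitor Timp3 at 55.5, 13 and 172 CPM in brain and 0, 1.29 and 0 CPM in blood. Fn1, the fibronectin gene, overlapped between the groups (0.71, adjusted p = 1.00).

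Of the antigen presentation genes, 0 passed after adjustment in either class, and the difference between the classes was not tested. Of 11 MHC class II genes tested, 3 (27.3%) were higher at the unadjusted threshold, against 1.44% of all genes. The brain libraries lay above without overlap in 6, against 7.17% of all genes, and the median was 1.72. H2-Ab1 was measured at 977, 2251 and 942 CPM in brain and 630.5, 558 and 60.9 CPM in blood (1.74, adjusted p = 0.936). H2-Eb1 was at 619.7, 1731 and 486 CPM in brain and 454, 318 and 74.7 CPM in blood and H2-Aa at 1101, 2326 and 949 CPM in brain and 721, 563 and 46.4 CPM in blood, so NMO_Br_mono replicate 2 was the highest library and NMO_Bl_mono replicate 3 the lowest in all 3 chains. Without NMO_Br_mono replicate 2 the median was 1.16 and 0 members passed the unadjusted threshold, and without NMO_Bl_mono replicate 3 the median was 1.16 and 2 passed. Cd74, the invariant chain, had no overlap either (1.34, adjusted p = 1.00). Of 16 MHC class I genes, 2 (12.5%) were lower, against 2.69% of all genes, and 0 higher, with a median of -0.98. H2-K1 was at 1017, 717 and 603 CPM in brain and 1358, 1427 and 1452 CPM in blood (-0.86, adjusted p = 0.625), and H2-T22 was at 4.14, 0.186 and 6.93 CPM in brain and 58.5, 35.4 and 48.3 CPM in blood. The median of the class I genes was -0.33 over the 5 with 10 counts in each library, and B2m, the light chain, overlapped (-0.10, adjusted p = 1.00). Reads of these gene families can align to several members. The summed dendritic cell markers, 250 to 820 CPM in brain and 148 to 294 CPM in blood, overlapped between the groups, and their part was not tested.

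**Figure D5:**
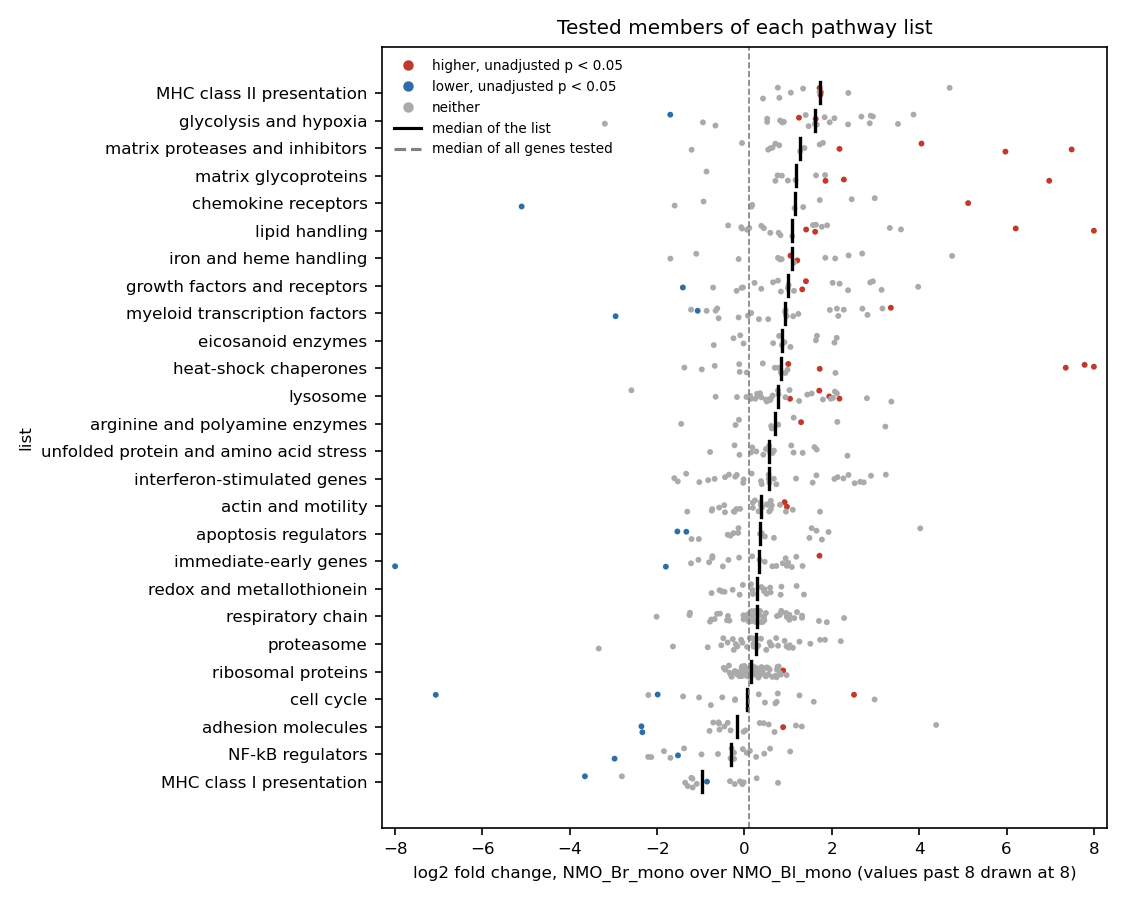
Log2 fold change (NMO_Br_mono over NMO_Bl_mono, horizontal axis) of each tested member of 26 pathway lists, 1 point a gene, ordered by the list's median (black bar). Red and blue mark genes past the unadjusted threshold on the higher and lower side, the dashed line is the median of all genes tested (0.10), and the medians run from -0.98 for MHC class I to 1.72 for MHC class II.

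Regulators of NF-kB, the transcription factor of inflammatory induction, had their calls on the blood side. Tnfaip3, the A20 inhibitor, was measured at 2.58, 143 and 53.5 CPM in brain and 596, 602 and 365 CPM in blood (-2.97, adjusted p = 0.637). Nfkbia, the inhibitor IkB-alpha, was at 1639.6, 3062 and 1773 CPM in brain and 9024, 8179.8 and 1401 CPM in blood (-1.52, adjusted p = 1.00), and NMO_Bl_mono replicate 3 lay below all brain libraries. Of 20 tested, these 2 (10%) were lower at the unadjusted threshold, against 2.69% of all genes, and 0 higher, with a median of -0.31. Without NMO_Bl_mono replicate 3, 5 were lower and the median was -0.83, while without NMO_Bl_mono replicate 1 only 1 was lower and the median was 0.04, on the other side of 0. The related Nfkbiz and Nfkbib were above every brain library in NMO_Bl_mono replicates 1 and 2 only.

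Immediate-early genes, which respond within minutes to stimulation and to handling, had no common direction, with 1 of 23 higher, 2 lower and a median of 0.34. Without NMO_Br_mono replicate 2 the median was -0.12, and without NMO_Bl_mono replicate 1, 4 were higher. The higher gene was Ier3, an early-response survival factor, at 366, 154 and 292 CPM in brain and 125, 85.3 and 36.7 CPM in blood (1.72, adjusted p = 1.00). Dusp2, a phosphatase of MAP kinases, was at 143, 272 and 155 CPM in brain and 649, 949 and 385 CPM in blood (-1.80, adjusted p = 0.183). Egr3 was at 0 in every brain library and at 3.67 to 56.3 CPM in blood. Klf6 overlapped between the groups (-0.12, adjusted p = 1.00).

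Among 26 myeloid transcription factors, Irf8 fell, and 2 genes (7.69%), Irf8 and Id2, were lower and 1 (3.85%) higher at the unadjusted threshold. Id2, an inhibitor of helix-loop-helix factors abundant in NK and dendritic cells, was at 688, 1254 and 659 CPM in brain and 1869.9, 1761 and 1838 CPM in blood (-1.07, adjusted p = 0.424). The list median was 0.94 over all members and -0.14 over the 15 with 10 counts in each library.

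Among 22 growth factors and receptors, 2 were higher and 1 lower at that threshold. Csf2rb, the shared beta chain of the GM-CSF receptor, was measured at 574, 514 and 318 CPM in brain and 133, 253 and 145 CPM in blood (1.41, adjusted p = 0.663), and Il4ra, the IL-4 receptor chain, at 272, 400.0 and 252 CPM in brain and 145, 134 and 91 CPM in blood (1.32, adjusted p = 0.989). Ifngr1, a chain of the interferon-gamma receptor, was at 328, 322 and 227 CPM in brain and 679, 711 and 944 CPM in blood (-1.41, adjusted p = 0.183). Groups did not overlap in these 3 genes. Csf1r, the receptor of macrophage colony-stimulating factor, was above blood in every brain library without passing (1.01, adjusted p = 1.00). Among 11 chemokine receptors, Ccr1 was higher, at 164, 12 and 201 CPM in brain and 5.98, 4.85 and 0 CPM in blood, and S1pr5, a sphingosine-phosphate receptor of NK cells and patrolling monocytes, was lower, at 6.16, 0 and 0 CPM in brain and 63.5, 21.6 and 127 CPM in blood. Of 20 adhesion genes, Spn and Itga4 were lower and the hyaluronan receptor Cd44, at 1011, 1078 and 1144 CPM in brain and 568, 703 and 479 CPM in blood, higher (0.88, adjusted p = 0.707).

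Of 25 genes of glycolysis, which yields energy without oxygen, and of the hypoxia response, 2 (8%) were higher and 1 (4%) lower at the unadjusted threshold, and the median was 1.61. The brain libraries lay above all blood libraries in 18 of the 25 and below in 1, against 7.17% and 6.79% of all genes, and in 6 of the 9 members with 10 counts in each library. Pkm, the last enzyme of glycolysis, was measured at 815, 806 and 726 CPM in brain and 331, 379 and 47.2 CPM in blood (1.63, adjusted p = 0.876), and Aldoa, an aldolase, at 485, 371 and 318 CPM in brain and 180.1, 242 and 72.5 CPM in blood (1.25, adjusted p = 1.00). Slc2a1, the glucose transporter GLUT1, had no overlap and did not pass (2.94, adjusted p = 1.00). The lower gene was Bnip3l, a mitophagy receptor that red cell precursors need, at 29.6, 23.6 and 95.1 CPM in brain and 104, 177 and 201 CPM in blood (-1.70, adjusted p = 0.983), and it moved with the erythroid sum, whose part was not tested. The list median was 1.16 without NMO_Bl_mono replicate 3 and 0.87 over those 9 members, and 1 to 4 members were higher when single libraries were left out, with 1 without NMO_Br_mono replicate 1 or NMO_Bl_mono replicate 1 and 4 without NMO_Bl_mono replicate 3.

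The lipid and iron lists had calls on the higher side only, as did the microglia markers, whose part was not tested. Of 21 lipid-handling genes, 4 (19.0%) were higher at the unadjusted threshold, against 1.44% of all genes, and 0 lower, with a median of 1.09. Without NMO_Br_mono replicate 3, NMO_Bl_mono replicate 1 or NMO_Bl_mono replicate 2, 2 were higher. Apoe, the lipoprotein of cholesterol export, was measured at 1125, 1157 and 709.9 CPM in brain and 498, 521 and 106 CPM in blood (1.41, adjusted p = 0.876). Gpnmb, a glycoprotein of lipid-laden macrophages, was at 65.2, 61.2 and 193 CPM in brain and 4.31, 0 and 0 CPM in blood, and Mertk, a receptor for dying cells, was seen in brain libraries alone, at 8.96 to 18.1 CPM. Plin2, the lipid droplet coat, passed although NMO_Bl_mono replicate 3 lay inside the brain range (1.62, adjusted p = 1.00). Of 14 iron and heme genes, the ferritin chains Fth1, at 3151, 4441 and 3070.4 CPM in brain and 1938, 2215 and 989.6 CPM in blood (1.05, adjusted p = 0.637), and Ftl1, at 1117, 724 and 639.7 CPM in brain and 402, 549 and 122 CPM in blood (1.21, adjusted p = 1.00), were higher and 0 were lower, and 1 was higher without NMO_Br_mono replicate 1 or NMO_Bl_mono replicate 3.

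Housekeeping lists were close to the median of all genes. Of 78 ribosomal protein genes 1 (Rpl4) was higher at the unadjusted threshold and 0 were lower, with a median of 0.15, and of 55 respiratory chain, 38 proteasome and 20 redox genes 0 passed in either direction, with medians of 0.28, 0.26 and 0.29. Actin and motility genes had a median of 0.37, and Vim and Cfl1, which severs actin filaments, were higher among 29. Of 18 cell cycle genes, Ccnd1, at 227, 162 and 308 CPM in brain and 53.4, 17.5 and 51.7 CPM in blood (2.51, adjusted p = 0.876), was higher, and Mcm6 and Ccnd2 were lower, with a median of 0.06, and 0 were lower without NMO_Bl_mono replicate 3. Of 19 apoptosis regulators, the death-promoting Bcl2l11, at 87, 92.1 and 172 CPM in brain and 209.9, 276 and 398 CPM in blood (-1.33, adjusted p = 1.00), and Bbc3, at 32.5, 52.3 and 55 CPM in brain and 111, 154 and 141 CPM in blood (-1.54, adjusted p = 1.00), were lower and 0 were higher, with a median of 0.36. Without NMO_Br_mono replicate 1 or NMO_Bl_mono replicate 2, 0 of them were lower.

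Interferon-stimulated, unfolded protein response and eicosanoid genes gave no call. Of 32 interferon-stimulated genes, 19 genes of the unfolded protein response and 13 eicosanoid genes, 0 passed the unadjusted threshold in either direction, and the medians were 0.56, 0.56 and 0.86. Of the interferon-stimulated genes, 4 lay above without overlap and 0 below, against 7.17% and 6.79% of all genes. Ifitm3 had means of 1761 ± 627 CPM in brain and 1187 ± 616 CPM in blood (SD, n = 3). Of 10 arginine and polyamine genes 1 passed, the amino acid transporter Slc3a2, at 424, 489.5 and 428 CPM in brain and 239, 257 and 50 CPM in blood. Arg1, arginase-1, was at 324, 185 and 842 CPM in brain and 0, 1.19 and 143 CPM in blood and had no overlap, but its spread was wide and it did not pass (3.23, adjusted p = 1.00). For the genes that the study itself lists from these samples, 8 of 14 inflammation genes and 2 of 6 scavenger receptors were higher at the unadjusted threshold, which is not independent evidence of their direction.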

How the data were processed

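Monocytes were sorted from pooled mice, RNA was sequenced as QuantSeq 3′ libraries, and the authors aligned reads with Bowtie2 and counted unique and multiple alignments with bedtools, and the submitters' processing notes name mm10, and versions and annotation are not given in the sources used here. The deposited values are raw counts per gene symbol, not normalized, 1 sample a file. The other value columns not used were 0 in number. Of 23282 entries, 35 symbols were repeated and were reduced to their largest entry, leaving 23238 symbols, of which 9549 had no count in the 6 libraries.

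Genes with at least 10 counts in at least 3 of the 6 NMO libraries (8768) were tested in R 4.3.3 with edgeR 4.0.16 (glmQLFit and glmQLFTest, TMM factors from 0.832 to 1.47) on all 9 libraries, with NMO_Br_mono minus NMO_Bl_mono as the contrast. The common dispersion was 2.48. Floors and counts cover counting error only, since no molecular identifiers are described. The script was tested on simulated data with a smaller dispersion than these libraries have, where it recovered changes of known size. That test does not measure how many changes are missed or wrongly called here. The 44 gene lists (832 genes, 826 in the table) were described by counts and medians. The members and lists were chosen with earlier results of these data known.

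Named genes were up to 12 each way by smallest p that passed after adjustment, averaged 50 CPM or more in one tissue and did not overlap, up to 10 each way of smallest p without overlap among the 2553 genes with 10 counts in each library, up to 4 of each list by smallest p with its most abundant member, and the sorting markers. Markers at 0 are named apart from this rule, and a few genes are not reported here. Alternatives were RLE factors, library sizes alone, no filter, 10 counts in each library, only the 6 libraries, the replicate number as a block, DESeq2 1.42.0, limma-voom (limma 3.58.1) with quality weights, Rn45s left out, and each library left out. Replicates within a group are separate pools. Promoter letters were searched in a RefSeq table of GRCm38.p6.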

Additional observations from a re-analysis of the deposited data

How the results depend on the processing

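The direction of the named genes and their side of the threshold were kept in 1265 of the values of single genes under the alternatives, 96 passed only under an alternative and 52 no longer passed. Klf6 and B2m, close to 0 in the comparison, changed sign, with a range of -0.39 to 0.12 for Klf6 and -0.32 to 0.10 for B2m when single libraries were left out. Against 2 genes higher and 19 lower after adjustment and 126 and 236 before it, there were 3 and 22 (160 and 228 before) with RLE factors, 2 and 26 (125 and 281) with library sizes alone, 42 and 71 (283 and 410) with no filter, 2 and 7 (129 and 137) with 10 counts in each library, 1 and 6 (101 and 171) with only the 6 libraries, 45 and 112 (223 and 286) with DESeq2, and 62 and 9 (366 and 426) with limma-voom, whose median over all genes was -0.51 and whose 9 held 2 of the 19. The filters and the 6 libraries test fewer or more genes or samples by construction, and otherwise the cause was not tested. Leaving out 1 library gave 0 to 3 higher and 7 to 29 lower after adjustment and 92 to 175 higher and 173 to 430 lower before it. The floor limits genes low in one tissue: NMO_Bl_mono replicate 3 was at it in 62 of the 126 higher genes and NMO_Br_mono replicate 2 in 129 of the 236 lower genes.

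Same-numbered NMO_Br_mono and NMO_Bl_mono libraries did not deviate together (correlations 0.06, -0.01 and 0.01). Whether they came from the same mice is not stated, and correlations between libraries that vary this much cannot decide it. In replicate order, NF-kB regulators summed to 13227, 12626 and 2229 CPM in NMO_Bl_mono and 13761, 13030 and 2758 CPM in Nor_Bl_mono. Lysosomal genes went otherwise, at 8412, 10297 and 5390 CPM in NMO_Bl_mono and 8183, 9998 and 12159 CPM in Nor_Bl_mono. Nor_Bl_mono replicate 3 also had the most genes at the floor in its group (27.3%). Whether same-numbered blood libraries deviated together was not tested, and the main fit had no replicate term. With the replicate block there were 7 genes higher and 12 lower, and 118 and 118 before adjustment, and 8 of the 12 were among the 19.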

Other observations

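Of the 19 genes that fell, 7 lie outside the rule for named genes and were picked after their values were seen. Gimap6, at 54.6, 74.6 and 272 CPM in NMO_Bl_mono, belongs to the same GTPase family as Gimap4, and the pseudogene Klra13-ps, at 49.5, 33.7 and 285 CPM, to the Ly49 family. Klrg1, an inhibitory receptor of NK and effector T cells, was at 77.1, 96.5 and 46.9 CPM in blood, and Cma1, a mast cell chymase, at 102, 48.4 and 51.0 CPM. Pogk, a zinc finger gene, Setbp1, a nuclear protein gene, and 5830416P10Rik complete the group. Every brain library was at or under the floor for all 7 genes, so that the blood levels were at least 220-fold (Cma1) to 440-fold (Gimap6) over it, with adjusted p from 0.0201 to 0.0485.

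Monocytes from the blood of normal mice, which form neither side of the comparison and entered the fit to estimate the spread, gave 157, 367 and 374 CPM of Tgfbi and 381, 318 and 293 CPM of Ctsd, all below every brain library. Hspa1a was at 51.8, 22.6 and 0 CPM.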
